A study of Mus musculus with 48 samples.

Results

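The livers described here came from mice of the strain labelled C57/BL6, all born to dams fed a diet high in selenium and folate, and the comparison asks what differed in the liver once the pups were moved to a diet low in both nutrients. The first letter of a group name gives the dam's diet and the second the diet of the offspring, with H for 0.44 mg selenium and 2.4 mg folate per kg and L for 0.08 mg selenium and 0.4 mg folate per kg. HH mice stayed on the H diet after weaning, HL mice were switched to the L diet, and both were given it as a high-fat diet until 12 weeks of age. Of 48 arrays in the series, 12 liver arrays belonged to these groups, chosen by their labels alone. The 6 HL arrays came from 6 mice, and the 6 HH arrays from 5 mice, because the arrays of HH replicate 3 and a later slide carried the same animal number and were averaged (r = 0.81 between their deviations from the group mean, against at most 0.26 for other HH pairs). LH and LL livers, 6 mice each from dams on the L diet, entered the same fit and are used for 1 comparison at the end.

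The study describes the offspring as males, killed after a fast and a period of re-feeding; the clock time of collection and the litter of each mouse are not given in the sources used here. Selenium and folate were lowered together, so their separate parts cannot be told apart, and a whole liver holds hepatocytes with several minor cell types, so fewer cells of a type and less RNA per cell cannot be told apart. If mice shared a litter, the p-values below measure a spread that is partly within litters. RNA of each mouse was labelled with the dye Cy3 and hybridised to a 2-colour Agilent array with a common reference RNA in Cy5, with no dye swap. A value in the text is the log2 ratio of mouse over reference for the brightest probe of a gene, and a log2 fold change is the HL mean minus the HH mean, which is the reverse of the order HH *vs.* HL in the study. Precision was limited by 5 and 6 mice per group.

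Selenium is built into selenoproteins as the amino acid selenocysteine, and the liver uses it for its own glutathione peroxidases and thioredoxin reductases and for selenoprotein P, which it secretes to supply other organs. Folate carries one-carbon units for the synthesis of thymidine and purines and for the remethylation of homocysteine to methionine, the source of the methyl groups used on DNA, RNA and lipids. The liver is also the organ of bile acid synthesis and drug metabolism, and many of its genes follow a daily rhythm set by the circadian clock and by feeding.

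The hepatocyte markers *Alb*, *Apoa1* and *Ttr* were well above background on every array, and between 55.1 and 66.0% of probes were well above background in Cy3 on the HH and HL arrays. A few mice stood apart. The array labelled HL replicate 2 gave a log2 Cy3 signal of 11.6 for *Xist*, the RNA of the inactive X chromosome. The other HH and HL arrays gave 5.98 to 6.60. For the Y-linked gene *Eif2s3y* it gave 6.29, where they gave 9.78 to 11.3. Its signals of *Ddx3y* (6.29) and *Kdm5d* (6.43), also Y-linked, were the lowest of these arrays. These values are unlike those of a male, although the study describes the offspring as males, and the reason was not tested. HL replicate 1 had a mean of 5 exocrine pancreas genes 3.65 above the HH mean on the log2 scale, and HH replicate 3 had a mean of 8 stellate cell and fibroblast genes 0.83 above it. HH replicate 2, HL replicate 5 and HL replicate 6 each had a few local backgrounds far above the rest of the array, which were replaced before background correction. Counts of genes are therefore also given without HL replicates 1 and 2 and HH replicate 3, and without HL replicates 5 and 6.

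No probe passed a fold change over 1.5 with FDR under 0.05 (limma, 0 of 41172 probes, lowest adjusted p = 0.951), so every adjusted p for a gene named below was at least 0.951. The study does report differentially expressed liver genes between HH and HL at this threshold. The reason for that disagreement was not tested. At an unadjusted p under 0.05 limma gave 1804 probes, or 4.38%, of which 888 (2.16%) were higher and 916 (2.22%) lower in HL. With no difference between the groups a share of 0.05 is expected at that p, and the 4.38% of all probes was not above it. Over the 13647 named genes well above background, with 1 probe each, the count was 827 (6.06%). Of these, 380 (2.78%) were higher and 447 (3.28%) lower in HL. With each array centred on its median in place of loess, the split was 907 higher and 158 lower. The median log2 fold change over all of these genes was -0.02. The HH and HL mice did not overlap at all for 30 genes (0.22%), 15 in each direction. The named genes were taken for low unadjusted p or for non-overlap as well as for function, so their values are a description, read against these shares. The gene lists and their members were chosen with earlier results of these data known. Counts of list members here and below are therefore a description too, and not a test of the list.

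Selenoprotein mRNAs were spread evenly around no difference: of 23 selenoproteins well above background 12 were higher and 11 lower in HL, the median log2 fold change was 0.01, and 1 reached an unadjusted p under 0.05. That gene was *Gpx4*, the glutathione peroxidase that reduces lipid hydroperoxides in membranes. In HH replicates 1 to 5 the log2 ratio of *Gpx4* was -0.11, 0.13, 0.78, 0.54 and 0.57, and in HL it ran from -0.31 through a median of -0.06 to 0.40. The 2 lowest HH mice lay within the HL range and the other 3 above it, and HL was lower than HH on each of the 6 slides. Since 2 of the slides carried the same HH mouse, 6 slides stand for 5 HH mice here and below. *Gpx4* was 1.33-fold lower in HL (log2 fold change -0.41, 95% interval -0.68 to -0.15, limma unadjusted p = 0.00389).

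*Gpx1*, the cytosolic glutathione peroxidase, did not share that difference. Its log2 ratios were 0.02, 0.71, 0.74, 0.26 and 0.26 in the HH mice and 0.05 to 0.62 in HL with a median of 0.32. The log2 fold change of *Gpx1* was -0.07 (95% interval -0.36 to 0.22), and it became 0.09 when each array was centred on its median. For *Selenow*, a small thioredoxin-like selenoprotein, the log2 fold change was -0.21 (interval -0.51 to 0.09), and for *Selenom*, an ER selenoprotein, -0.22 (-0.50 to 0.05). *Selenoh*, a nuclear selenoprotein, gave -0.05 (-0.28 to 0.18) and *Selenof*, an ER quality-control protein, -0.08 (-0.37 to 0.20), and both were slightly above 0 with median centring, at 0.09 and 0.07. The secreted selenium carrier *Selenop* gave 0.08 (-0.34 to 0.51), the methionine sulfoxide reductase *Msrb1* 0.01 (-0.21 to 0.23) and the thioredoxin reductase *Txnrd1* 0.06 (-0.28 to 0.39). *Dio1*, which activates thyroid hormone, and *Sephs2*, which makes the selenium donor for selenocysteine, had the highest log2 fold changes of the ones followed, 0.35 (-0.19 to 0.88) and 0.36 (-0.18 to 0.90), with intervals that include 0.

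The machinery that makes and inserts selenocysteine gave 1 of 11 genes higher and 0 lower at an unadjusted p under 0.05, with a median log2 fold change of 0.11. *Sepsecs*, the enzyme of the last step of selenocysteine synthesis on its tRNA, had log2 ratios of 0.69, 0.35, 0.49, 0.40 and 0.54 in HH and 0.59 to 1.22 in HL, with a median of 0.89. Of the HH mice 1 lay within the HL range. *Sepsecs* was 1.31-fold higher in HL, and higher on all 6 slides (log2 fold change 0.39, interval 0.12 to 0.66, limma unadjusted p = 0.0072). *Scly*, the lyase that recovers selenium from selenocysteine, was 0.24 higher on the log2 scale (-0.02 to 0.49).

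Folate genes leaned in neither direction as a list, with 1 of 24 higher and 2 lower at an unadjusted p under 0.05 and a median log2 fold change of 0.04. *Mthfd2*, a mitochondrial enzyme of the folate cycle, had log2 ratios of -1.44, -1.30, -1.02, -1.44 and -1.12 in HH and -1.72 to -1.43 in HL, and was 1.24-fold lower (unadjusted p = 0.00857). *Mtrr*, which reactivates methionine synthase, was 1.2-fold higher in HL and higher on all 6 slides, with unadjusted p = 0.0485.

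None of 19 genes of the methionine cycle and transsulfuration and none of 11 genes of DNA methylation and demethylation reached an unadjusted p under 0.05 in limma, and their median log2 fold changes were 0.04 and 0.02. The methyltransferases with the lowest p in these lists lay below 0. *Gnmt*, which methylates glycine, gave a log2 fold change of -0.14 (0.02 with median centring) and *Nnmt*, which methylates nicotinamide, -0.27. The de novo DNA methyltransferases *Dnmt3a* and *Dnmt3b* gave -0.36 (-0.76 to 0.04) and -0.38 (-0.83 to 0.06). Among 22 zinc transporters and metallothioneins, 1 was higher and 0 lower, with a median of 0.09. It was *Slc39a14*, a zinc importer of the plasma membrane, at 1.2-fold higher in HL and higher on all 6 slides (unadjusted p = 0.0236, with a second probe of the gene also under 0.05), while *Slc39a6*, another importer, gave -0.16 (unadjusted p = 0.0992).

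**Figure D1:**
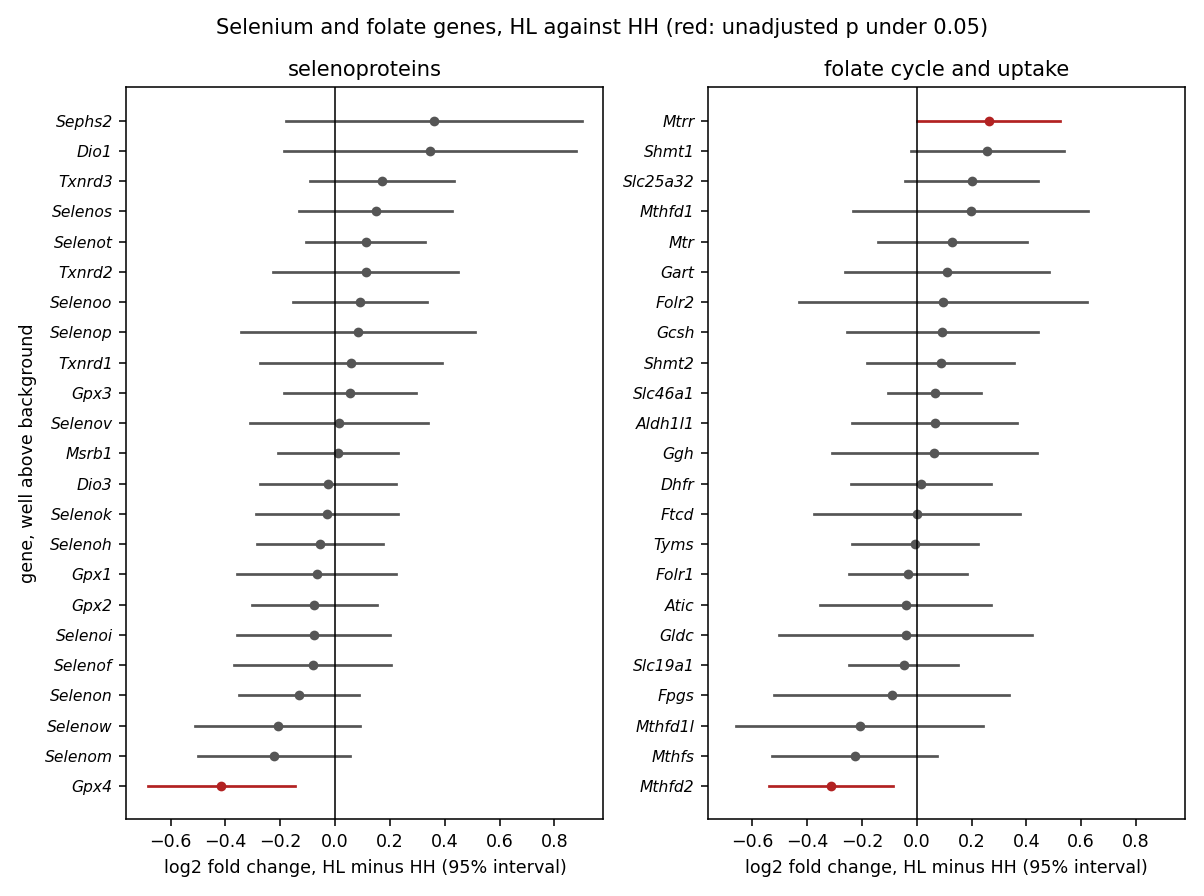
Log2 fold change, HL minus HH (x axis, log2 units), of the 23 selenoproteins (left) and 23 of the 24 genes of the folate cycle and uptake (right) that were well above background, with points for the estimate, lines for the limma 95% interval and red for an unadjusted p under 0.05. The selenoproteins straddle 0 with *Gpx4* alone in red at -0.41, and the folate list has *Mthfd2* at -0.31 below 0 and *Mtrr* at 0.26 above.

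Genes of the circadian clock that share the phase of *Dbp* were higher in HL at unadjusted p-values. The clock is a loop in which CLOCK and ARNTL (BMAL1) bind E-boxes and drive their own repressors and the output factors DBP, TEF and HLF, whose mRNAs peak in a different part of the day from that of *Arntl*. All 11 measured genes of the *Dbp* phase were higher in HL, and 7 of them reached an unadjusted p under 0.05, against 2.78% of all genes. As this list was chosen with earlier results of these data known, the count is a description. Their median log2 fold change was 0.67, beside -0.02 over all genes. All 5 measured genes of the *Arntl* phase were lower, with a median of -0.29, and 0 reached that p in limma (2 without HL replicate 2). A difference between the phases was not tested. Averaged over the *Dbp*-phase list and set relative to the HH mean, the HH mice ran from -0.76 to 0.74 and the HL mice from 0.23 to 1.14 on the log2 scale. The HL median of 0.79 was above every HH mouse, and the lower HL mice lay within the HH range.

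*Ciart*, a repressor of CLOCK and ARNTL, had the highest fold of the list. Its log2 ratios were 0.65, 1.87, 0.03, 0.08 and 1.56 in HH and 1.06 to 4.44 in HL, with a median of 2.24. HH replicates 2 and 5 were inside the HL range and the other 3 HH mice below it. *Ciart* was 3.07-fold higher in HL (log2 fold change 1.62, interval 0.50 to 2.74, limma unadjusted p = 0.00668). *Dbp* had log2 ratios of 0.35, 2.76, -1.04, -0.91 and 1.71 in HH and 1.09 to 2.75 in HL, with a median of 2.31, and was 2.92-fold higher (1.55, interval 0.20 to 2.89, unadjusted p = 0.026). The same HH mice were low for *Tef*, at -0.06, 1.00, -1.64, -0.80 and 0.35, beside 0.10 to 1.23 in HL. *Tef* was 1.96-fold higher, and all 3 of its probes reached an unadjusted p under 0.05. HH replicates 3 and 4 gave the lowest values of both genes.

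*Usp2*, a deubiquitinase of clock proteins, was 1.98-fold higher (unadjusted p = 0.0175), *Per1*, a core repressor, 1.71-fold (0.0459), *Nr1d2*, a nuclear receptor that represses *Arntl*, 1.59-fold (0.0403), and *Wee1*, a cell cycle kinase driven by the clock, 1.44-fold (0.0158). The remaining members had log2 fold changes of 0.51 for *Nr1d1* (-0.08 to 1.09), 0.36 for *Per2* (-0.08 to 0.81), 0.28 for *Hlf* (-0.17 to 0.73) and 0.20 for *Bhlhe40* (-0.16 to 0.56). For *Hlf* the sign turned to -0.02 without HH replicate 3. On the opposite side of the loop, *Arntl* had log2 ratios of -0.31, -1.17, 0.30, -0.04 and -0.36 in HH and -1.72 to 0.03 in HL. HH replicate 2, which had the highest *Dbp* of its group, had the lowest *Arntl*. Log2 fold changes were -0.68 for *Arntl* (-1.47 to 0.10), -0.29 for *Clock* (-0.61 to 0.04), -0.47 for *Nfil3*, a repressor of the targets of DBP (-1.14 to 0.20), and -0.09 for *Cry1*, a repressor (-0.64 to 0.46).

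The count of 7 depended on single mice. It was 2 without HH replicate 3, 4 without HH replicate 4, HL replicate 1 or HL replicate 6, 2 without HL replicates 1 and 2 and HH replicate 3 together, and 1 without HL replicates 5 and 6. The list's median stayed between 0.52 and 0.92 when 1 mouse at a time was left out and was 0.60 without HL replicates 5 and 6. The time of day at which each mouse was killed is not given, and its part in these values was not tested.

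**Figure D2:**
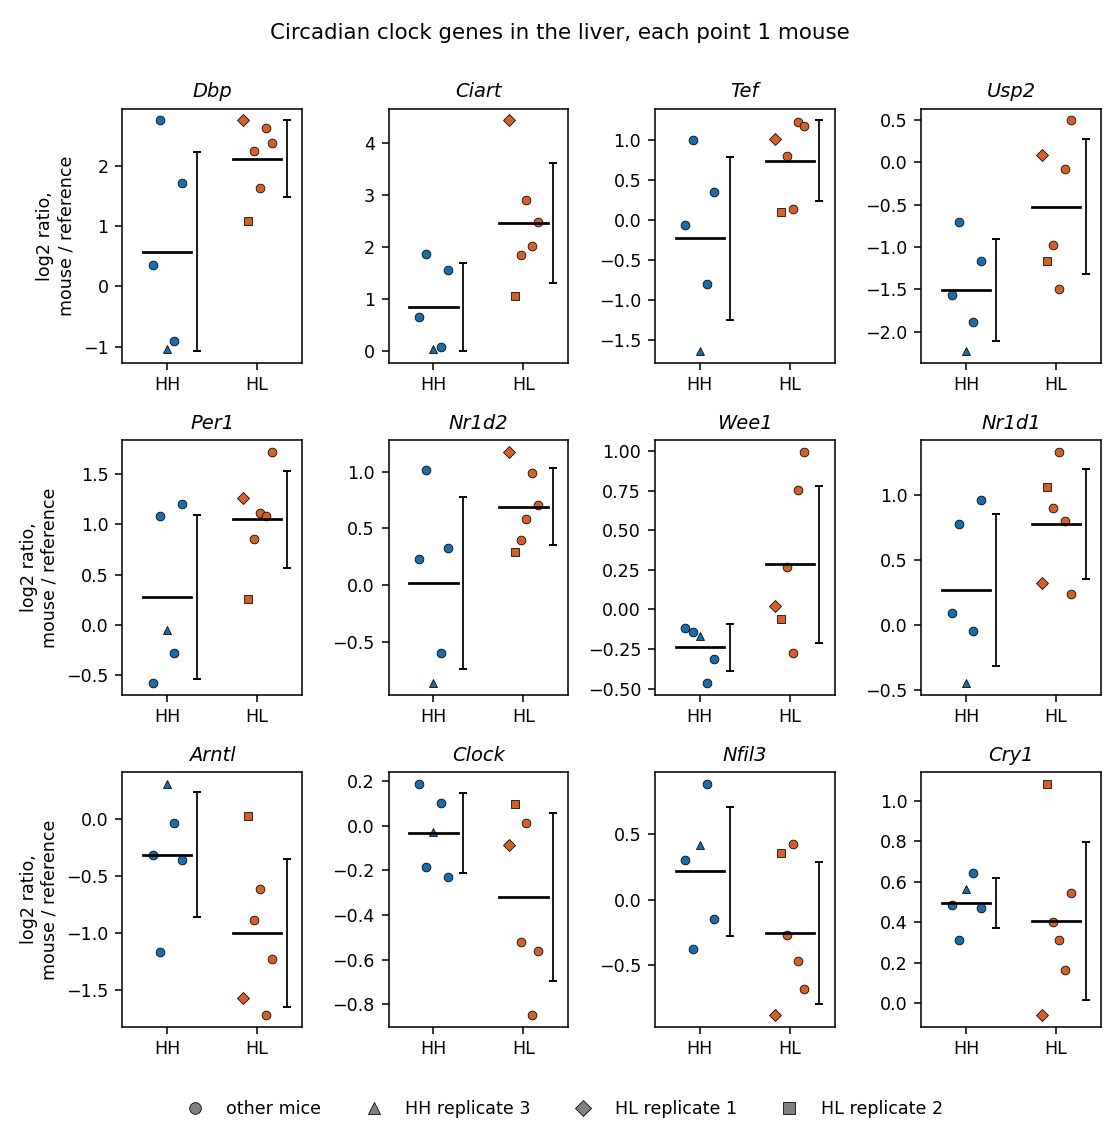
Log2 ratio of mouse over reference (y axis, a separate scale in each panel) of 12 clock genes in 5 HH and 6 HL mice, each point 1 mouse, with a line at the group mean, a bar for the SD and marks for HH replicate 3 and HL replicates 1 and 2. In the upper 8 panels the HL mean lies above the HH mean and in the lower 4 below it, with overlapping mice in each panel. For *Dbp* the HH mice spread from -1.04 to 2.76.

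Promoter sequence is shown for the clock genes to let the E-box, the binding letters of CLOCK and ARNTL, be seen beside the values. In 250 bases before the annotated start, from RefSeq on GRCm38.p6, the E-box CACGTG (palindromic, so the same on both strands) was present in 4 of 10 *Dbp*-phase genes with a window and 1 of 5 *Arntl*-phase genes, against 6.02% of 32851 promoters. The D-box TTATGTAA, searched on both strands and bound by DBP, TEF and HLF, was in 1 and 0 of these genes against 0.819% of all promoters. The 4 genes included *Bhlhe41*, and the D-box gene was *Per3*. Neither was among the 11 *Dbp*-phase genes measured above. A gene with several annotated starts was counted if any window held the letters, while the share is per promoter. The other window of *Per1* held 0 E-boxes. The window of *Dbp* itself held 0 E-boxes and 0 D-boxes, as did those of *Nr1d1*, *Nr1d2*, *Hlf* and *Usp2*. Only windows that hold an E-box are printed below. *Ciart*, at chr3:95882229-95882478 on the minus strand, held 3 E-boxes, beginning 116, 58 and 44 bases before the start. *Tef*, at chr15:81802423-81802672 on the plus strand, held 1 that begins 127 bases before the start, and *Per1*, at chr11:69098699-69098948 on the plus strand, 1 at 166 bases. *Klf15*, whose values follow later, is shown for comparison from chr6:90462326-90462575 on the plus strand and held 2, at 228 and 172 bases. Each sequence is given 5′ to 3′ with the E-box in capitals.
Ciart: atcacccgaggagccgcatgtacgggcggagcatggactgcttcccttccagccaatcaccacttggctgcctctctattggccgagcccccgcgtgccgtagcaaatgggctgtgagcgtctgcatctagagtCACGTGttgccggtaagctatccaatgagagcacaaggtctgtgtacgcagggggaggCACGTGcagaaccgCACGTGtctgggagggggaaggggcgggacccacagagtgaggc
Tef: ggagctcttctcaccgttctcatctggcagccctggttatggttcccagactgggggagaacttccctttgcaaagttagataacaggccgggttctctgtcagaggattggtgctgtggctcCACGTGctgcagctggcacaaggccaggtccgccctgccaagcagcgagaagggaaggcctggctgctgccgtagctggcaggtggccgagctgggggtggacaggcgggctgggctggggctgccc
Per1: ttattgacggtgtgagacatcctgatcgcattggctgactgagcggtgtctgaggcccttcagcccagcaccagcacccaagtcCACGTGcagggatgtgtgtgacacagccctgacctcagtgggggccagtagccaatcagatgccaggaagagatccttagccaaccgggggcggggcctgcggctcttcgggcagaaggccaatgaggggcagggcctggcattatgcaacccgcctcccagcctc
Klf15: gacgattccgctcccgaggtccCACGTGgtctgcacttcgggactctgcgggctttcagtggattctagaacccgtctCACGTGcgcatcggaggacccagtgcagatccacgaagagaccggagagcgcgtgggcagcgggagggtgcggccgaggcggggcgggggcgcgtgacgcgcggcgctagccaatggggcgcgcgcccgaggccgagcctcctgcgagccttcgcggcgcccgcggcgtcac
These matches describe letters in a window and are not evidence of binding in these livers.

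Genes of the ribosome and the respiratory chain were mostly lower in HL by small amounts after loess, a direction that was lost for the ribosome and turned for the respiratory chain after median centring. Of 81 cytosolic ribosomal protein genes 76 were lower and 5 higher, the median log2 fold change was -0.17, and 22 were lower and 0 higher at an unadjusted p under 0.05, against 3.28% lower over all genes. With median centring the list's median was -0.02 and 0 were lower. *Rpl41*, the smallest protein of the large subunit, had log2 ratios of -0.37, -0.37, -0.03, 0.03 and -0.35 in HH and -0.94 to -0.29 in HL, with a median of -0.70. It was 1.32-fold lower in HL and lower on all 6 slides (log2 fold change -0.41, interval -0.63 to -0.18, limma unadjusted p = 0.00103). *Rpl34* (1.24-fold, unadjusted p = 0.00566) and *Rps25* (1.23-fold, 0.00588) were lower on all 6 slides as well, while *Rps19*, of the small subunit, gave -0.14 (-0.50 to 0.22, and 0.0019 with median centring). Ribosomal protein genes have many processed copies in the genome, and which of them a probe also reads was not tested.

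Of 80 subunits of the respiratory chain and ATP synthase 66 were lower in HL, the median was -0.11, and 10 were lower and 0 higher at an unadjusted p under 0.05. With median centring the median became 0.04, with 0 lower and 2 higher. *Ndufb4*, of complex I, had log2 ratios of 0.06, 0.22, 0.30, 0.36 and 0.48 in HH and -0.46 to 0.38 in HL, with a median of -0.14, and was 1.29-fold lower (-0.37, interval -0.60 to -0.13, limma unadjusted p = 0.00424). *Cox7a2*, of complex IV, was 1.42-fold lower (unadjusted p = 0.0101) with a second probe under 0.05, and *Uqcrh*, of complex III, 1.24-fold lower (0.0242). Without HL replicates 5 and 6 the counts lower were 4 ribosomal and 0 respiratory genes, and without HL replicates 1 and 2 and HH replicate 3 they were 21 and 20. Without HL replicate 4 they were 30 and 20, without HL replicate 5 they were 13 and 5, and without HL replicate 6 they were 12 and 5. The respiratory count was also 5 without HH replicate 4 or HH replicate 5.

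Translation initiation factors showed no common direction, with 1 of 34 higher, 0 lower and a median of -0.02. *Eif2s3x*, a subunit of the factor that brings the initiator tRNA and a gene on the X chromosome, was 1.25-fold higher (unadjusted p = 0.0378), and *Eif5* gave -0.39 (-0.79 to 0.02). *Pfdn1*, a prefoldin that hands new proteins to a chaperonin, gave a log2 fold change of -0.35 (-0.84 to 0.15).

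ER chaperones and genes of the unfolded protein response leaned the opposite way: 20 of 24 were higher in HL, with a median log2 fold change of 0.20, and 3 were higher and 1 lower at an unadjusted p under 0.05. The shares over all genes at that p were 2.78% higher and 3.28% lower. *Herpud1*, a part of ER-associated degradation, had log2 ratios of 1.13, 1.59, -0.21, 1.14 and 0.93 in HH and 0.79 to 1.97 in HL with a median of 1.68. HH replicate 3 was far below the other HH mice. *Herpud1* was 1.57-fold higher (unadjusted p = 0.0181), *Canx*, the lectin chaperone calnexin, 1.25-fold (0.0255) and *Atf6*, a sensor of ER stress, 1.21-fold (0.0494). *Ddit3*, the stress factor CHOP, was 1.29-fold lower (0.038). *Xbp1*, the transcription factor of the response, gave 0.49 (-0.13 to 1.11) and the chaperone *Hsp90b1* 0.22 (-0.27 to 0.71). The count of 3 higher became 0 without HH replicate 3, 6 without HL replicate 2, 1 without HL replicate 3 or HL replicate 5, 5 without HL replicate 4, 0 without HL replicates 5 and 6, 6 without HL replicates 1 and 2 and HH replicate 3, and 8 with median centring. With median centring the count higher over all 13647 genes rose as well, from 380 to 907.

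Drug-metabolising genes of the hepatocyte were mostly higher in HL. Of 21 xenobiotic P450s and their regulators 17 were higher in HL, the median log2 fold change was 0.28, and 5 were higher and 0 lower at an unadjusted p under 0.05. Over all genes 2.78% were higher at that p, and the median was -0.02. The share of all genes on each side of 0 was not counted. *Cyp2c54*, a P450 of the arachidonic acid and drug metabolising 2C family, had log2 ratios of 2.47, 2.64, 0.34, 2.16 and 2.03 in HH and 2.39 to 3.88 in HL, with a median of 3.10. It was 2.23-fold higher in HL (log2 fold change 1.16, interval 0.49 to 1.82, limma unadjusted p = 0.0015), and HH replicate 3 was again the lowest mouse. *Cyp2a5*, a coumarin hydroxylase, was 1.77-fold higher and higher on all 6 slides (unadjusted p = 0.00687). Its near-identical copy *Cyp2a4* gave 1.55-fold (0.0184), and the probes may read both genes, so that the values are uncertain for each one.

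*Cyp2c29* (1.49-fold, unadjusted p = 0.0175), *Cyp2c39* (1.4-fold, 0.0196) and *Por*, the reductase that serves all microsomal P450s (1.24-fold, 0.0432), completed the 5. *Cyp1a1*, the P450 induced through the aryl hydrocarbon receptor, behaved unlike the rest, with log2 ratios of 2.87 and 3.63 in HH replicates 1 and 4, -2.74, -3.52 and -2.45 in the other HH mice, and -3.14 to -0.81 in HL. Its log2 fold change of -1.89 (interval -3.82 to 0.03) rested on those 2 mice. The count of 5 was 3 without HH replicate 3 or HL replicate 2, 8 without HH replicate 2, 9 without HL replicate 4, 3 without HL replicates 1 and 2 and HH replicate 3, 3 without HL replicates 5 and 6, and 9 with median centring. Median centring also raised the count higher over all 13647 genes, from 380 to 907.

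Bile acid synthesis and transport gave 2 of 18 genes higher and 0 lower at an unadjusted p under 0.05. The share of all genes higher at that p was 2.78%, and the list's median log2 fold change was 0.07. *Akr1d1*, the reductase that shapes the steroid ring on the way to bile acids, had log2 ratios of 2.18, 1.77, 1.69, 1.44 and 1.29 in HH and 1.72 to 3.06 in HL, with a median of 2.82. It was 1.9-fold higher and higher on all 6 slides (0.92, interval 0.41 to 1.44, limma unadjusted p = 0.00124). *Slc10a1*, the transporter NTCP that takes bile acids up from the blood, had 2.15, 2.18, 1.71, 1.87 and 1.98 in HH and 1.88 to 2.98 in HL, and was 1.47-fold higher, also on all 6 slides (unadjusted p = 0.00347). For both genes the median of the HL mice was above every HH mouse.

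Among 20 genes of gluconeogenesis, glycolysis and the insulin response 2 were higher and 0 lower at an unadjusted p under 0.05. The list's median was 0.04, and 2.78% of all genes were higher at that p. *Slc2a2*, the glucose transporter GLUT2 of the hepatocyte, had log2 ratios of 1.94, 1.92, 1.04, 1.77 and 1.86 in HH and 2.00 to 2.48 in HL, so that the groups did not overlap. It was 1.4-fold higher (log2 fold change 0.49, interval 0.16 to 0.81, unadjusted p = 0.00529), with both of its probes under 0.05. *Insr*, the insulin receptor, was 1.29-fold higher (0.0373). The count of 2 was 4 without HL replicate 2, and 1 without HL replicates 1, 5 or 6 or HH replicates 3, 4 or 5.

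**Figure D3:**
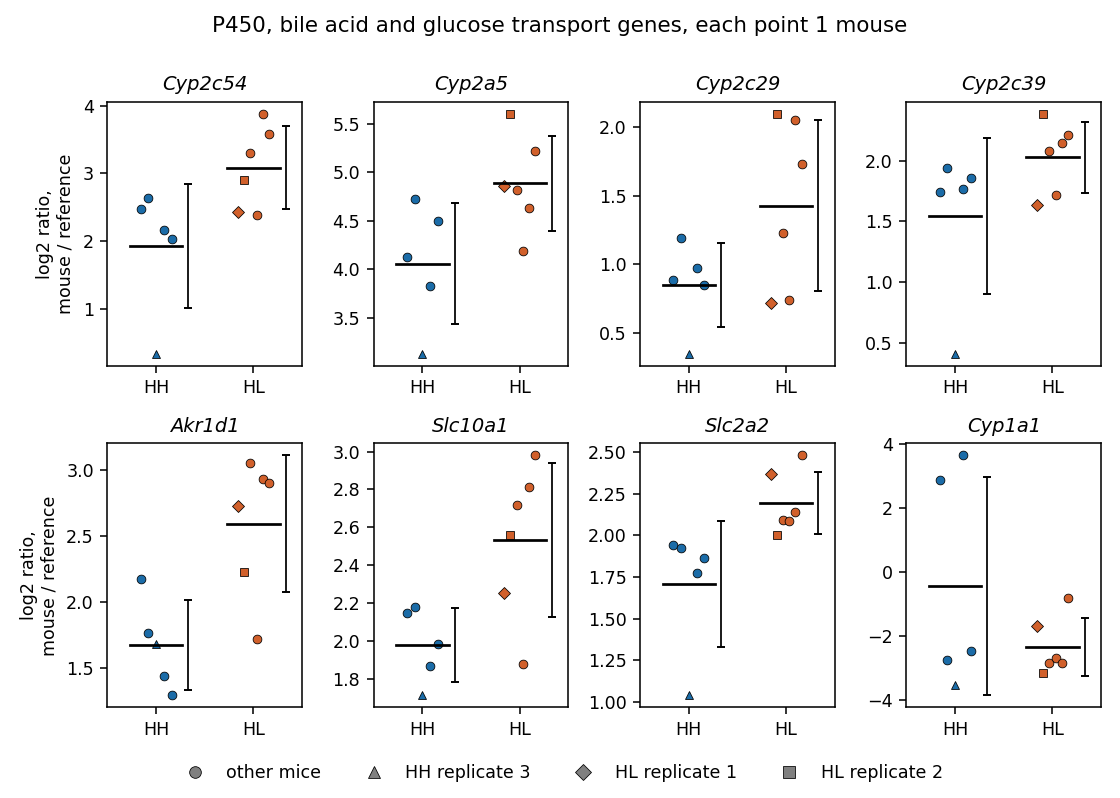
Log2 ratio of mouse over reference (y axis, a separate scale in each panel) of 8 hepatocyte genes in 5 HH and 6 HL mice, with the group mean, the SD and the same marks for HH replicate 3 and HL replicates 1 and 2. HH replicate 3 is the lowest HH mouse in every panel but that of *Akr1d1*, the groups are separate only for *Slc2a2*, and 2 HH mice stand apart for *Cyp1a1*, at 2.87 and 3.63.

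Lipid genes gave few differences. Of 25 genes of cholesterol synthesis 19 were higher with a median log2 fold change of 0.14, and 1 reached an unadjusted p under 0.05, *Sc5d*, a desaturase of the late pathway (1.19-fold, 0.0197). In fatty acid synthesis 1 of 22 was higher and 0 lower, with a median of 0.10, and that gene was *Lpin1*, a phosphatidate phosphatase and transcriptional coactivator (1.83-fold, 0.0423), while *Acss2*, which makes acetyl-CoA from acetate, gave 0.31 (-0.02 to 0.63). Fatty acid oxidation gave 2 of 27 higher, 1 lower and a median of 0.11. *Vnn1*, a pantetheinase and target of PPAR alpha, was 1.51-fold higher on all 6 slides (0.0361), *Acadl*, an acyl-CoA dehydrogenase, 1.24-fold higher (0.0363), and *Pdk4*, the kinase that shuts pyruvate dehydrogenase, 1.68-fold lower (0.0428). The choline kinases *Chka* and *Chkb*, which open the synthesis of phosphatidylcholine, were 1.71-fold lower (0.0392) and 1.13-fold lower (0.0593), in a list of 14 with 0 higher, 1 lower and a median of 0.01. These small counts moved with single mice: the count higher was 5 for cholesterol synthesis without HL replicate 2, and 0 for fatty acid oxidation without HH replicate 4, HL replicate 3 or HL replicate 6.

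Stress and plasma protein genes were likewise sparse. Of 19 acute phase genes 3 were higher and 0 lower, with a median of 0.03: *Crp* (1.2-fold, unadjusted p = 0.0108) and the fibrinogen chains *Fga* (1.43-fold, 0.0483) and *Fgb* (1.21-fold, 0.0477). Across all genes 2.78% were higher and 3.28% lower at an unadjusted p under 0.05. The count of 3 was 1 without HH replicate 1, HH replicate 5, HL replicate 2, HL replicate 3, HL replicate 5 or HL replicate 6, and 2 genes were lower without HH replicate 2. Of 21 immediate early and heat shock genes 3 were lower and 0 higher and the median was -0.19. *Jun* (1.72-fold lower, 0.0327) and *Myc* (1.33-fold lower, 0.0246), growth-response transcription factors, were lower in HL on all 6 slides, and *Hspe1*, a mitochondrial chaperonin, was 1.26-fold lower (0.0393). The count of 3 lower was 1 without HH replicate 4 or HL replicate 5. With median centring 0 of this list were lower and 1 was higher. Among 26 Nrf2 targets and glutathione enzymes, genes of the antioxidant response, 1 was lower and 0 higher with a median of -0.12. It was *Aox1*, an aldehyde oxidase (1.24-fold lower, 0.0414), and *Srxn1*, sulfiredoxin, gave -0.37 (-0.75 to 0.01).

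Liver genes that differ between the sexes were compared because of HL replicate 2. Of 8 genes higher in female liver 1 reached an unadjusted p under 0.05 and the median log2 fold change was 0.45, which became -0.07 without that mouse. For *Cyp3a44* the log2 fold change was 0.35 (-0.26 to 0.96). Of 7 genes higher in male liver 0 reached that p (limma, median -0.02). *Elovl3*, a fatty acid elongase, gave -1.06 (-2.16 to 0.05) with a value of -0.98 in HL replicate 2 and 1.83 to 3.20 in the other HL mice, and the complement gene *C6* gave -0.48 (-1.16 to 0.20).

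The genes with no overlap between HH and HL were few, at 0.11% of genes in each direction. With 5 HH and 6 HL mice, some of so many genes separate in this way even with no difference between the groups. Their number was not counted, so the genes below are a description and not a sign of a diet effect. Besides *Slc2a2*, the largest differences upwards were for *Car8*, a carbonic anhydrase relative without enzymatic activity, at 1.33 to 1.69 in the 5 HH mice and 1.70 to 2.27 in HL (1.37-fold), and for *Kcnn2*, a calcium-activated potassium channel, at 2.05, 2.30, 1.69, 1.88 and 2.15 in HH and 2.31 to 2.55 in HL (1.29-fold). *Acnat1*, an acyltransferase of the fatty acid and bile acid conjugating family, had log2 ratios of 1.12, 1.09, 1.15, 1.04 and 1.19 in HH and 1.28 to 1.56 in HL (1.23-fold). The groups did not overlap either for *Faim2* (1.26-fold), an inhibitor of cell death through Fas, *Dnajc12* (1.24-fold), a co-chaperone of the aromatic amino acid hydroxylases, *Rab43* (1.22-fold) and *F13b* (1.21-fold), a plasma subunit of coagulation factor XIII.

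Downwards, *Col5a3*, a fibrillar collagen chain, had log2 ratios of 0.24, 0.74, 0.49, 0.82 and 0.25 in HH and -0.90 to 0.16 in HL (1.63-fold lower). *Pdgfa*, a growth factor for stellate cells and fibroblasts, had -0.58, -0.30, -0.02, -0.56 and -0.68 in HH and -1.13 to -0.76 in HL (1.44-fold lower). Beside both genes, 7 of 8 stellate cell and fibroblast markers were lower in HL with a median of -0.29. The mean of these markers ran from -0.26 to 0.83 in HH and from -0.49 to -0.14 in HL, with HH replicate 3 at the top, and the part of these cells in the 2 genes was not tested. Without HL replicates 1 and 2 and HH replicate 3 the median of the markers was -0.05. The other genes without overlap were *Comtd1* (1.37-fold lower), *H2ac13* (1.3-fold), a histone gene, *Lzts2* (1.29-fold), *Dlgap4* (1.28-fold), *Ripor1* (1.28-fold) and *Tomm5* (1.26-fold), a subunit of the mitochondrial import pore.

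The 2 lowest unadjusted p-values of all named genes, picked after their values were seen, belonged to *Klf15* and *Slc16a12*. *Klf15*, a transcription factor of amino acid and glucose metabolism in the fasted liver, had log2 ratios of 1.26, 1.76, 1.30, 1.01 and 1.62 in HH and 1.72 to 2.10 in HL with a median of 1.96, and was 1.45-fold higher on all 6 slides (log2 fold change 0.54, interval 0.30 to 0.78, limma unadjusted p = 0.000109). *Slc16a12*, a creatine transporter, had 0.12, 0.30, -0.46, -0.58 and -0.37 in HH and -0.03 to 1.06 in HL, and was 1.75-fold higher on all 6 slides (0.81, interval 0.42 to 1.19, unadjusted p = 0.000246). Only 1 HH mouse reached the HL range of *Klf15*, and 2 reached that of *Slc16a12*.

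The other marker lists gave values for cells that a liver sample could hold. Medians of the log2 fold change were 0.06 for 4 hepatocyte markers, -0.04 for 8 Kupffer cell markers, 0.06 for 7 sinusoidal endothelial markers, -0.03 for 7 lymphocyte markers, -0.12 for 5 cholangiocyte markers, -0.48 for 3 neutrophil markers, -0.20 for 3 erythroid markers and -0.55 for 2 adipocyte markers. For 5 exocrine pancreas genes the median was 0.46, and it turned to -0.24 without HL replicate 1. *Amy2a5*, pancreatic amylase, was 1.06 in HL replicate 1 and -2.15 to -1.02 in the other HL mice, beside -2.44 to -1.65 in HH.

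**Figure D4:**
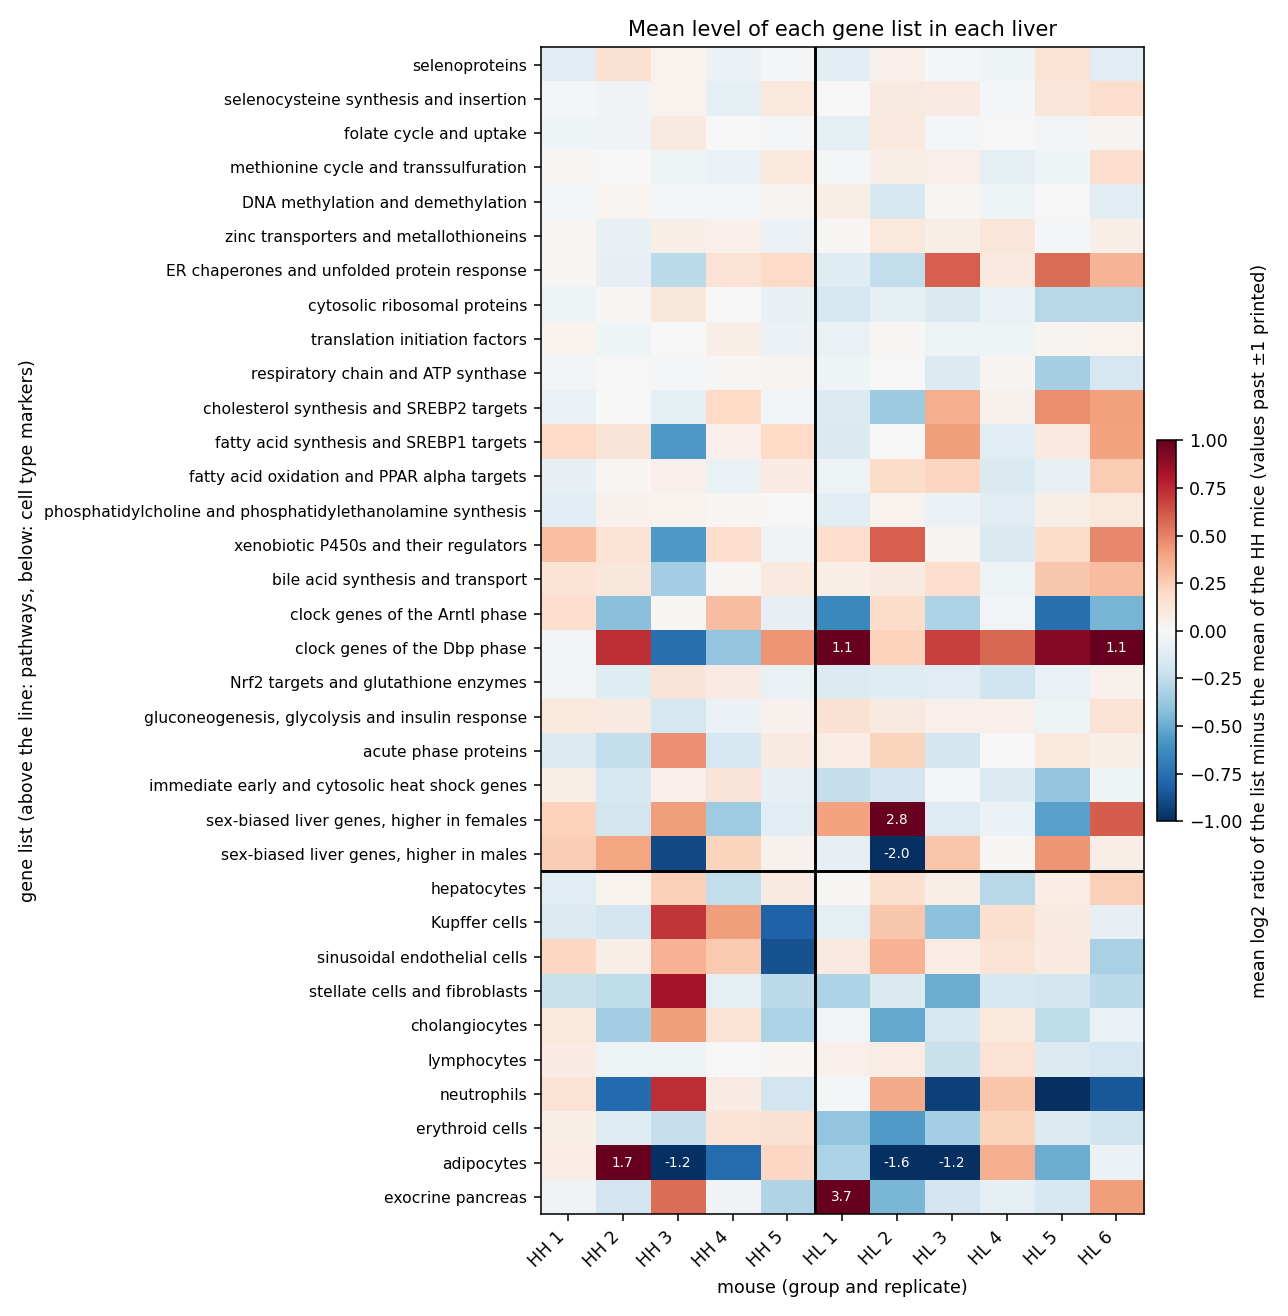
Mean log2 ratio after loess of each gene list in each HH and HL mouse, less the mean of the HH mice, as a colour from -1 (blue) to 1 (red) on the log2 scale, with means beyond that range printed and a line between pathways and cell type markers. The *Dbp*-phase row is above 0 in all 6 HL mice and from -0.76 to 0.74 in HH, the ribosomal row is below 0 in all 6 HL mice, and single mice stand out for exocrine pancreas (HL 1, 3.65), sex-biased genes (HL 2, 2.80 and -2.03) and stellate cells (HH 3, 0.83).

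The same change of offspring diet in pups of dams on the L diet, LL against LH, gave differences of the opposite sign for most of these genes. LL against LH had 0 of 41172 probes past the threshold in limma (lowest adjusted p = 0.770) and 2598 (6.31%) at an unadjusted p under 0.05. The test of the difference between both diet effects, an interaction term in the same fit, also gave 0 probes (lowest adjusted p = 0.284), with 4660 (11.3%) at an unadjusted p under 0.05, or 2010 (14.7%) of the genes well above background. It gave 4 probes with the slide as a block, 494 with array weights and 565 without HL replicates 1 and 2 and HH replicate 3. LL replicate 6 gave a log2 Cy3 signal of 8.55 for *Xist*, between those of the other LH and LL arrays (6.09 to 6.74) and of HL replicate 2. Across the 13647 genes the HL minus HH and LL minus LH differences correlated with r = -0.60 (Spearman rho = -0.59). No mouse was shared between the comparisons, but each slide held 1 array of each group, and genes are not independent replicates. Array positions within the slides were not balanced between the groups. With array position as a block, limma gave 3176 probes at an unadjusted p under 0.05 for the difference (lowest adjusted p = 0.557). The part of array position in the correlation and in the opposite signs was not tested. Of the 827 genes with an unadjusted p under 0.05 in HL against HH, 740 (89.5%) had the opposite sign in LL minus LH. The share of opposite signs over all 13647 genes was not counted, so the 89.5% has no background beside it.

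Ribosomal protein genes had a median log2 fold change of -0.17 in HL minus HH and 0.16 in LL minus LH, and for 40 of 81 the difference, LL minus LH less HL minus HH, was above 0 at an unadjusted p under 0.05 and for 0 below, against 7.2% of genes above. For the respiratory chain the medians were -0.11 and 0.14, and 32 of 80 differed that way. In LL against LH itself 25 ribosomal and 15 respiratory chain genes were higher at an unadjusted p under 0.05 and 0 lower, against 3.09% of genes higher. ER genes had medians of 0.20 and -0.16, with the difference below 0 for 6 of 24 and above for 1, against 7.53% of all genes below. Of these ER genes 4 were lower in LL than in LH at that p and 0 higher, against 3.44% lower. For P450 genes it was below 0 in 7 of 21, and the medians were 0.28 and -0.13. The *Dbp*-phase clock genes had medians of 0.67 and -0.10, with the difference below 0 in 4 of 11. In LL against LH itself 0 P450 genes and 0 *Dbp*-phase genes reached that p in either direction. The mean of the *Dbp*-phase list, relative to the HH mean, had a median of -0.03 in HH, 0.79 in HL, 0.86 in LH and 0.72 in LL. For this list HH was thus the low group, and LL lay near LH.

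These list counts were made after loess and not with median centring. They also moved with single mice of all 4 groups. With each of 23 mice left out in turn, the difference was above 0 for 32 to 43 ribosomal and 24 to 36 respiratory chain genes, and below 0 for 6 to 9 ER, 5 to 9 P450 and 3 to 7 *Dbp*-phase genes, the 7 being without HH replicate 2 or LL replicate 3. Without HL replicates 5 and 6 the counts were 26, 16, 4, 4 and 2, and without HL replicates 1 and 2 and HH replicate 3 they were 38, 35, 12, 4 and 4. In LL against LH the 25 ribosomal genes became 12 without LH replicate 5, 13 without LL replicate 2, 14 without LL replicate 5 and 15 without LH replicate 2 or LL replicate 6. The 15 respiratory chain genes became 9 without LL replicate 2 and 24 without LL replicate 4. The 4 ER genes became 1 without LL replicates 1, 2 or 5, and 2 without LH replicates 1 or 3 or LL replicate 4.

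Markers of blood cells moved in the same pair of directions. Of 5 neutrophil markers 3 were well above background, and their median log2 fold change was -0.48 in HL minus HH and 0.76 in LL minus LH. All 3 were higher in LL than in LH at an unadjusted p under 0.05 (2 of 3 with some LH or LL mice left out), and for 2 of 3 the difference was above 0 at that p. The mean of these markers, relative to the HH mean, ran from -0.78 to 0.74 in HH, from -0.99 to 0.38 in HL, from -1.32 to -0.76 in LH and from -0.76 to -0.015 in LL. The LH mice were thus low and nearly apart from the LL mice. For 3 of 6 erythroid markers well above background the medians were -0.20 and 0.17, 1 was higher in LL at that p, and the difference was above 0 for 2, or for 1 when any of several single mice was left out. Their mean ran from -0.23 to 0.15 in HH, -0.57 to 0.22 in HL, -0.42 to -0.13 in LH and -0.26 to 0.20 in LL. The part of these cells in the differences between both diet effects was not tested.

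Values of single genes are given as a description. Several were named for a low unadjusted p or for non-overlap in HL against HH. That comparison is part of the difference, so the choice favoured small p-values of the difference. *Akr1d1* was 0.92 higher in HL than in HH on the log2 scale, and -0.54 in LL minus LH (difference -1.47, limma unadjusted p = 0.000321). For *Cyp2c54* the values were 1.16 and -0.57 (difference -1.72, 0.000748), for *Gpx4* -0.41 and 0.15 (difference 0.56, 0.00448), and for *Rpl41* -0.41 and 0.17 (difference 0.57, 0.000837). *Acnat1* gave 0.30 and -0.30 (9e-06), and *Tomm5* -0.34 and 0.38 (4.95e-05). Group means differed in their order between genes. For *Gpx4* they were 0.38 in HH, -0.03 in HL, -0.22 in LH and -0.07 in LL, with HH alone above 0. For *Akr1d1* they were 1.67 in HH, 2.59 in HL, 2.45 in LH and 1.90 in LL, with HL and LH above HH and LL. *Mthfd2* was an exception, lower in both comparisons, at -0.31 and -0.13.

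**Figure D5:**
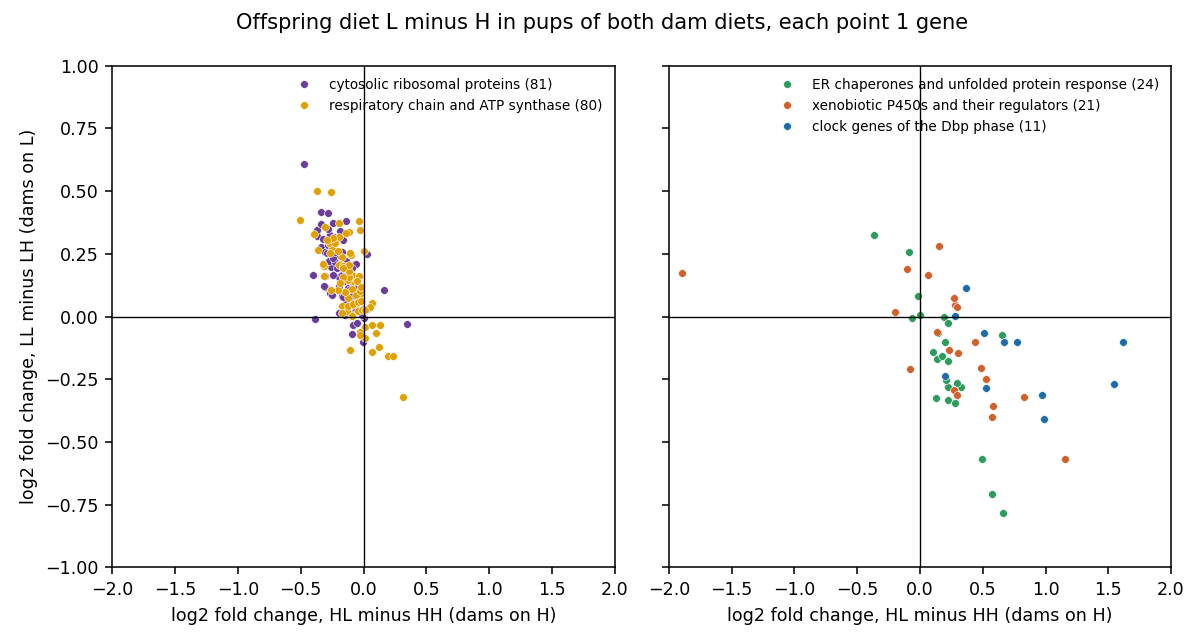
Log2 fold change of HL minus HH (x axis) against LL minus LH (y axis), each point 1 gene after loess, for ribosomal (81) and respiratory chain (80) genes on the left and ER (24), P450 (21) and *Dbp*-phase clock genes (11) on the right. Most left-hand points lie up and to the left of 0 and most right-hand points down and to the right, around list medians of -0.17 and 0.16 for the ribosome and 0.28 and -0.13 for the P450s.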

How the data were processed

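Liver RNA of each mouse was compared with a common reference on Agilent 2-colour arrays of 45018 spots, 43379 of them not controls. The reference is described in the study as pooled intestinal and liver RNA and otherwise in the labels, so only differences between mice are used. The authors deposited scanner files with spot and local background intensity of both dyes (Feature Extraction 10.10.1.1 in the file headers) and a table of log2 ratios, normalised with limma in R 3.0.2 per the submitters' notes. The deposited log2 table matched a loess without background correction, and served as an alternative.

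Here limma 3.58.1 in R 4.3.3 was used. Local backgrounds over 2 times their array's median were replaced by that median, followed by normexp with offset 50 and global loess. Control and outlier-marked spots were left out. The 2 arrays of one HH animal were averaged, and 23 mice of 4 liver groups entered 1 fit with moderated statistics and Benjamini-Hochberg adjustment. A call needed a fold change over 1.5 and FDR under 0.05, as in the study's methods. Slides (6, each with 1 array of every group) were tried as a block. Of 41174 probes 27050 could be named, giving 18433 genes in RefSeq (GRCm38.p6) by accession. A gene was represented by its brightest probe, well above background on at least 3 of 6 arrays in each group.

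Named genes were 10 selenoproteins, the liver genes of the study's text, the 2 genes with the lowest p in each list, and the 8 largest differences in each direction without overlap. The study's text names those liver genes for HH *vs.* LH and not for HH *vs.* HL. A few list members and the 2 genes of lowest p overall were added after their values were seen. Members and gene lists were chosen with earlier results of these data known. Statistics were tested on simulated data. Colon arrays were not used here, and some members of the lists are not reported by name here.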

Additional observations from a re-analysis of the deposited data

Results flagged for a closer look

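In 24 of 276 sets of values (a gene or a list mean in 1 group) a single mouse lay far from the others, where chance gives about 1 in 20. For HH replicate 3 these were *Selenof* at 0.35 against -0.50 to -0.36 in the other HH mice, *Cyp2c54* at 0.34, *Slc2a2* at 1.04, *Elovl3* at 1.80, *Hlf* at 0.43 and *Cyp2c39* at 0.41, all as log2 ratios. The same mouse stood apart in the mean of fatty acid synthesis genes (-0.57 relative to the HH mean), bile acid genes (-0.35), male-biased liver genes (-0.91) and stellate cell and fibroblast markers (0.83).

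HL replicate 2 stood apart for *Elovl3* (-0.98), *C6* (0.40), the means of female-biased (2.80) and male-biased (-2.03) liver genes, and the mean of the sex chromosome genes (-2.95). HL replicate 5 stood apart for *Srxn1* (-1.38), *Myc* (-1.40) and *F13b* (2.36), and HL replicate 1 for *Amy2a5* (1.06) and the mean of exocrine pancreas genes (3.65). The remaining values were *Comtd1* in HL replicate 3 (-1.31), *Uqcrh* in HH replicate 4 (-0.076), the mean of phosphatidylcholine and phosphatidylethanolamine synthesis in HH replicate 1 (-0.10) and the mean of sinusoidal endothelial markers in HH replicate 5 (-0.87). Their causes were not tested.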

How the results depend on the processing

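HL against HH gave 0 probes past the threshold under each of 31 other settings, and 0 of 103 genes followed passed it (limma). The 1804 probes with an unadjusted p under 0.05 became 585 with local backgrounds as deposited, 4296 with array weights, 4394 without HL replicates 1 and 2 and HH replicate 3 (lowest adjusted p = 0.135) and 747 without HL replicates 5 and 6. Leaving out 1 mouse at a time gave 1077 (without HL replicate 5) to 3295 (without HL replicate 4). It was also 1087 without HL replicate 6, and 2923 when HL replicate 1 was dropped. With array position as a block it was 1316. It came to 2646 with the slide as a block and 1821 from differences within slides. Those fits pair arrays by slide. By replicate number, no paired analysis was possible because these numbers come from the order of the samples.

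The difference between both diet effects had 0 probes past the threshold, but 4 with the slide as a block, 494 with array weights and 565 without HL replicates 1 and 2 and HH replicate 3. Its 4660 probes with an unadjusted p under 0.05 became 2766 with local backgrounds as deposited, 8516 with array weights and 2279 without HL replicates 5 and 6, and 3388 to 5974 with 1 of the 23 mice of the 4 groups left out (3804 without LL replicate 6), with 0 past the threshold each time. They were 3176 with array position as a block and 3529 with median centring, of which 1480 were above 0 and 2049 below. Arrays carry no read depth: between 55.1 and 66.0% of probes were well above background, and dimmer probes were left out of the gene lists.

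Of the 103 genes 11 changed sign in 37 pairs of gene and setting, each with an interval across 0 in the fit reported. With median centring the log2 fold change of *Gpx1* became 0.091, *Selenoh* 0.093, *Selenof* 0.068, *Rps19* 0.0019 and *Gnmt* 0.024. *Msrb1* became -0.024 with backgrounds as deposited, -0.012 with offset 0, -0.070 from processed signals, -0.011 from the deposited table, -0.0088 with array weights and -0.051 without HL replicates 5 and 6. *Selenop* became -0.079 from Cy3 alone and -0.041 with the 2 arrays as 2 mice, *Cry1* 0.0048 with array position as a block, and *Gpx1* 0.0052 with array weights. Without HL replicates 1 and 2 and HH replicate 3 the values were 0.033 for *Gpx1*, 0.0072 for *Selenoh*, -0.071 for *Msrb1*, 0.11 for *Selenof*, 0.097 for *C6* and -0.015 for *Hlf*. Over the fits that each omitted 1 mouse, log2 fold changes ranged from -0.048 to 0.12 for *Msrb1*, -0.16 to 0.018 for *Gpx1*, -0.014 to 0.14 for *Txnrd1*, -0.14 to 0.069 for *Selenof*, -0.017 to 0.44 for *Hlf*, -0.094 to 0.0080 for *Selenoh*, -0.054 to 0.27 for *Selenop* and -0.22 to 0.0056 for *Cry1*.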

Other observations

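Adipocyte marker means, relative to the HH mean, spread from -1.22 to 1.70 in HH and from -1.62 to 0.36 in HL on the log2 scale, and neutrophil marker means from -0.78 to 0.74 in HH and from -0.99 to 0.38 in HL. In both sets the HH and HL mice overlapped, and 0 of 2 adipocyte and 0 of 3 neutrophil markers well above background reached an unadjusted p under 0.05 (limma).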
